A study of Mus musculus with 8 samples.

Results

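The minichromosome maintenance (MCM) helicase and the factors that load it, activate it and limit its loading were followed across 4 groups of mouse lungs. The 10 genes were Mcm2, Mcm3, Mcm4, Mcm5, Mcm6 and Mcm7, which encode the 6 subunits of the helicase, and Mcm10, Cdc6, Cdt1 and Dtl. They were taken by symbol from the probe sets that carry exactly 1 gene symbol, as 10 of the 18820 genes so named, and each of them had 1 probe set. The groups were CCSP-p52 mice given dox (doxycycline), WT mice given dox, CCSP-p52 mice given dox and LPS (lipopolysaccharide, from the outer membrane of bacteria, which provokes lung inflammation), and WT mice given dox and LPS. CCSP-p52 mice carry CCSP-rtTA with CCSP-tTS/(tet-O)7-FLAG-p52, so that dox turns on FLAG-tagged p52, the processed form of the NF-kB protein p100, in airway epithelium through the promoter of club cell secretory protein. They came from more than 1 founder line, and the WT mice were littermates without the transgenes that drank the same dox. All mice were FVB, 8 to 12 weeks old with the sexes mixed evenly, and all drank dox at 2 g/L with 2% sucrose for 1 week. LPS was placed in the trachea 48 hours before the lungs were taken. Each array read whole lung RNA pooled from 3 mice, with 2 pools in each group. Every error given therefore rests on the spread between pools and not between mice. That spread was estimated per gene over the pools of all groups, so an error without LPS rests on the LPS pools as well.

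A chromosome can be copied once per cell cycle because its origins are licensed beforehand. In the G1 phase the origin recognition complex, Cdc6 and Cdt1 place pairs of MCM rings, built of Mcm2 to Mcm7, around DNA in an inactive form. In the S phase kinases and further factors, Mcm10 among them, turn each ring into an unwinding helicase. Dtl (also called Cdt2) is the substrate receptor of a CRL4 ubiquitin ligase that has Cdt1 destroyed during the S phase, and with the inhibitor geminin this keeps origins from being licensed again. These genes are transcribed mainly in dividing cells, under control of E2F factors, and most cells of a resting adult lung do not divide.

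The 4 promoters below are shown because these were the members that differed at the cut-off used here between CCSP-p52 and WT lungs without LPS. Each is a RefSeq window of build GRCm38.p6, from 250 bases before to 50 bases after the gene's start, written 5′ to 3′ along the gene. Capitals mark matches to the E2F motif on either strand.
Mcm2, chr6:88898731-88899030, minus strand: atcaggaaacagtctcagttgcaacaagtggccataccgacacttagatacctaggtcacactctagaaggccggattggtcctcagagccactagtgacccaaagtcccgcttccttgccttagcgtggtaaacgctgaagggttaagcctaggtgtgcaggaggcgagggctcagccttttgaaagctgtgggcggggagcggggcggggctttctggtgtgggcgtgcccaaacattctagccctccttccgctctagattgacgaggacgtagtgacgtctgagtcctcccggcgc
Mcm5, chr8:75109259-75109558, plus strand: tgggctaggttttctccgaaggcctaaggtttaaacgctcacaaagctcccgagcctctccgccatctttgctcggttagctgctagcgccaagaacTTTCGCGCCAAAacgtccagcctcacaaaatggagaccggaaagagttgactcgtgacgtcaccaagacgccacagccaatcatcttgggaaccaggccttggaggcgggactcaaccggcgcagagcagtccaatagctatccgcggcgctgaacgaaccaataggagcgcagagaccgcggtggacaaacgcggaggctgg
Mcm6, chr1:128359656-128359955, minus strand: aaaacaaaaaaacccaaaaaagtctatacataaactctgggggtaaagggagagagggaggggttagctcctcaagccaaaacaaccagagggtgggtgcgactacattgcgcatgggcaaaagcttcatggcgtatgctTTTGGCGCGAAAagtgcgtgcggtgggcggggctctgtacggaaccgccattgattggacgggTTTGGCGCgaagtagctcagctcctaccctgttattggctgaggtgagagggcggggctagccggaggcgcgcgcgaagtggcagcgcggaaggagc
Dtl, chr1:191575495-191575794, minus strand: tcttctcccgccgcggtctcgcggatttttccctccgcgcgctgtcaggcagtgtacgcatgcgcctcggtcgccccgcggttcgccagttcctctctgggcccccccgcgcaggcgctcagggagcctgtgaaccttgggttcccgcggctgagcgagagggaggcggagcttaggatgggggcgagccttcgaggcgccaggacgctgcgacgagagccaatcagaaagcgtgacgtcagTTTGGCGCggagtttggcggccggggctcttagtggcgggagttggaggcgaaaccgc

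The E2F motif was searched as TTTCCCGC, TTTCGCGC, TTTGCCGC and TTTGGCGC on both strands. The RefSeq table held 10 windows of 9 members, and Mcm7 had 2 of them. A match was found for 7 members, Mcm3, Mcm5, Mcm6, Mcm7, Cdc6, Cdt1 and Dtl, against 2.26% of all 32851 windows. In the windows printed above, Mcm5 had 2 overlapping matches, which began 153 and 149 bases before the start, and Mcm6 had 3, at 110, 106 and 47 bases before it. Dtl had 1 match that began 8 bases before the start, and Mcm2 had none. Mcm2 was the only member with TTTGAA, the core of the cell cycle element CHR, which was in 17.9% of all windows, and Mcm7 was the only one with a kappaB motif, the sequence class bound by NF-kB proteins, which was in 8.46%. The E2F motif was thus in 3 of the 4 windows printed and in windows of 4 of the other 5 members that had one, and a match in such a window is a run of letters and not a measured binding site.

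The members were read as log2 values that the authors had normalized with the Robust Multichip Average, which brings all arrays to 1 distribution. The medians of the 8 arrays lay between 7.48 and 7.54, and the pools of a group correlated at 0.996 in both dox groups, 0.981 in CCSP-p52 LPS lungs and 0.985 in WT LPS lungs. The induced gene was checked first. Nfkb2, which encodes p100 and p52, had log2 values of 10.20 and 10.33 in CCSP-p52 dox pools, against 9.51 and 9.58 in WT dox pools, and of 11.28 and 10.53 in CCSP-p52 LPS pools, against 10.83 and 10.56 in WT LPS pools. Its logFC was 0.72 without LPS (standard error 0.23) and 0.21 with LPS (standard error 0.23, unadjusted p = 0.39 from limma), and CCSP-p52 LPS pool 2 lay below both WT LPS pools. On the LPS arrays the check therefore did not separate the genotypes, and it did not bear out the label of that pool. LPS raised Nfkb2 in WT lungs as well, by 1.15 (standard error 0.23), and which transcripts its probes read was not settled here. Markers of lung cells were read on all arrays, with mean log2 values from 11.91 to 12.62 for 4 alveolar type II markers, from 11.32 to 12.00 for 4 alveolar type I markers and from 10.55 to 12.64 for 4 club cell markers. One array stood apart in its cell markers. The mean log2 value of 7 genes of squamous epithelium was 10.14 in WT LPS pool 2 and between 6.27 and 6.43 on the other arrays, and that of 6 skeletal muscle genes was 9.17 against 7.07 to 7.53. CCSP-p52 LPS pool 2 had a lower mean of 7 monocyte and macrophage markers, 9.53, than the other LPS pools, at 10.06 to 10.41, and a higher mean of 4 endothelial markers, 12.48 against 11.74 to 12.07. Results that rest on these pools are given without them as well.

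Without LPS, the licensing genes were higher in CCSP-p52 lungs. The log2 value averaged over the 10 members was 8.13 and 8.16 in the CCSP-p52 dox pools, against 7.86 and 7.69 in the WT dox pools. In 9 of the 10 members the lower CCSP-p52 pool exceeded the higher WT pool, the exception being Cdt1, while 16.1% of all 21218 probe sets tested had that order. Dtl, Mcm6, Mcm5 and Mcm2 passed as higher by the cut-off used here. It joins the study's logFC (the difference on the log2 scale) of 0.41, taken in either direction, to an unadjusted p no higher than 0.05, which the study does not state for its selection. No other member reached a logFC of 0.41, whatever its p. These 4 of 10 members compare with 0.556% of all probe sets called higher. The members were chosen with earlier results of these data known. Such shares therefore describe the members and are no independent evidence of a direction.

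**Figure D1:**
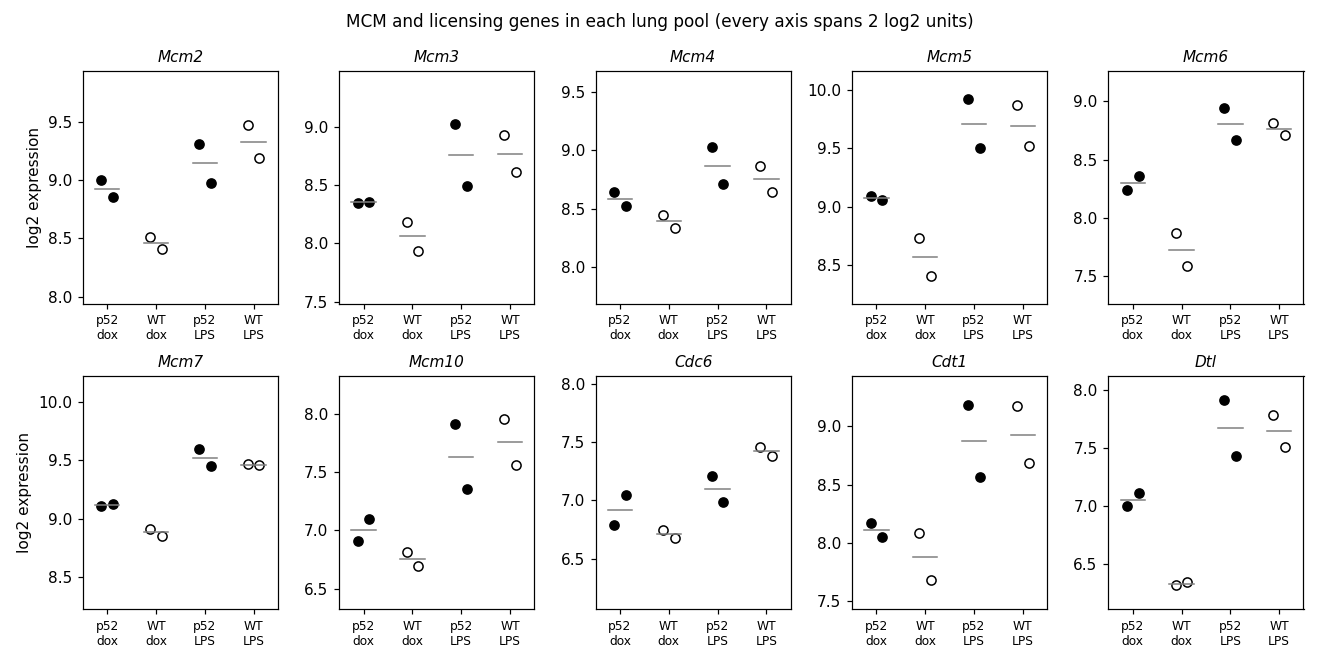
Log2 expression of the 10 members in each pool of CCSP-p52 (filled) and WT lungs (open), on dox alone and 48 hours after LPS, with grey lines at the group means and pool 1 left of pool 2. Each panel has its own position on the log2 scale but the same span, and only the Cdt1 panel has dox groups that overlap.

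The helicase subunits differed in the size of their change. Mcm6, a subunit of the ring, had log2 values of 8.24 and 8.36 in the CCSP-p52 dox pools, against 7.87 and 7.58 in the WT dox pools. The logFC was 0.58 (standard error 0.14, 1.49-fold, unadjusted p = 0.0048 from limma, n = 2 pools per group). Mcm5, which forms with Mcm2 the gate through which DNA enters the ring, had values of 9.09 and 9.05 in CCSP-p52 dox pools, against 8.73 and 8.41 in WT dox pools. Its WT pools lay farther apart than its CCSP-p52 pools, and the logFC was 0.50 (standard error 0.19, 1.42-fold, unadjusted p = 0.0348). Mcm2 had values of 9.0 and 8.86 in CCSP-p52 dox pools, against 8.51 and 8.41 in WT dox pools, for a logFC of 0.47 (standard error 0.15, 1.38-fold, unadjusted p = 0.0178). Both pairs of pools of Mcm2 were close to each other and did not overlap.

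The other 3 subunits did not reach the cut-off. Mcm7 had a small difference with little spread, with values of 9.11 and 9.13 in CCSP-p52 dox pools, against 8.91 and 8.85 in WT dox pools. Its logFC of 0.23 (standard error 0.09) had an unadjusted p of 0.0401 from limma and was smaller than 0.41. Mcm3 had values of 8.34 and 8.36 in CCSP-p52 dox pools, against 8.19 and 7.94 in WT dox pools, a logFC of 0.29 (95% interval -0.18 to 0.76). Mcm4 had values of 8.64 and 8.52 in CCSP-p52 dox pools, against 8.44 and 8.34 in WT dox pools, a logFC of 0.19 (95% interval -0.14 to 0.52). The intervals of Mcm3 and Mcm4 include 0 as well as differences as large as that of Mcm5. Whether the subunits differ from one another in their response was not tested.

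Among the genes that load, activate and limit the helicase, Dtl had the largest difference of all 10 members. Its log2 values were 7.00 and 7.11 in CCSP-p52 dox pools, against 6.32 and 6.35 in WT dox pools, for a logFC of 0.72 (standard error 0.17, 1.65-fold, unadjusted p = 0.0044 from limma). The gap between the groups was several times the distance between pools of a group. Cdc6, the ATPase that brings Cdt1 and the MCM ring to the origin, had values of 6.79 and 7.04 in CCSP-p52 dox pools, against 6.75 and 6.68 in WT dox pools, a logFC of 0.20 (95% interval -0.10 to 0.50). Mcm10, which binds the activated helicase and DNA polymerase alpha, had values of 6.91 and 7.10 in CCSP-p52 dox pools, against 6.82 and 6.70 in WT dox pools, a logFC of 0.25 (95% interval -0.25 to 0.75). Cdt1, the loader that Dtl has destroyed, had values of 8.17 and 8.05 in CCSP-p52 dox pools, against 8.08 and 7.68 in WT dox pools, a logFC of 0.23 (95% interval -0.37 to 0.84). Its WT pool 1 lay between the CCSP-p52 pools, so for Cdt1 a difference was not detectable with these pools.

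All 10 members had a positive logFC without LPS, with a median of 0.27, while 48.3% of all probe sets were positive with a median of 0.00 on the same scale. None passed adjustment over all probe sets (adjusted p = 1.00 for every member from limma). No probe set at all, 0% of the 21218, had an adjusted p under 0.05 in this comparison, and 361 had an unadjusted p under 0.05, 5 of them members. Leaving out any 1 array kept Mcm6 and Dtl at the cut-off, at a logFC of 0.44 to 0.72 for Mcm6 and 0.67 to 0.78 for Dtl. Mcm2 was not at the cut-off without CCSP-p52 dox pool 1 (lowest logFC 0.40) or WT dox pool 2, and Mcm5 was not without either CCSP-p52 dox pool or without WT dox pool 2 (lowest logFC 0.34). A fit with 1 pool left in a group takes the spread of that group from the others.

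In none of 12 marker lists was any gene called between CCSP-p52 and WT lungs without LPS. Of all 21218 probe sets only 118 were called higher and 34 lower, so this absence of calls could not decide whether cell types differed. All 4 club cell, all 4 endothelial and all 3 B cell markers measured had a negative logFC. Positive values were found for 5 of 7 monocyte and macrophage markers and 6 of 7 squamous ones. The mean log2 value of the monocyte and macrophage markers was 8.35 and 7.91 in CCSP-p52 dox pools, against 8.29 and 7.71 in WT dox pools. That of the neutrophil markers was 7.63 and 7.57 in CCSP-p52 dox pools, against 8.03 and 7.40 in WT dox pools. The 4 club cell markers, which mark cells in which the transgene's promoter is active, had means of 12.18 and 11.95 in CCSP-p52 dox pools, against 12.39 and 12.64 in WT dox pools. Most of this gap lay in Scgb3a1, with 11.81 and 10.81 in CCSP-p52 dox pools, against 12.48 and 12.71 in WT dox pools. Scgb1a1, the gene of club cell secretory protein itself, had 13.66 and 13.64 in CCSP-p52 dox pools, against 13.63 and 13.77 in WT dox pools. The 3 B cell markers measured had means of 9.01 and 8.34 in CCSP-p52 dox pools, against 9.53 and 8.61 in WT dox pools. The part of these lists in the result was not tested. In whole lung RNA, more dividing cells and more RNA of these genes per cell cannot be told apart.

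After LPS no member passed the cut-off between genotypes on all 8 arrays. Nfkb2 did not separate these groups either, with CCSP-p52 LPS pool 2 below both WT pools. The log2 value averaged over the 10 members was 8.81 and 8.41 in CCSP-p52 LPS pools, against 8.78 and 8.53 in WT LPS pools. None of the members was called, while 1.09% of all probe sets were called higher and 1.09% lower. The members' logFC had a median of 0.00, with 5 positive and 5 negative. In none were both CCSP-p52 values higher than both WT values, an order that 15.8% of probe sets had. The adjusted p was under 0.05 for 0% of all probe sets in limma, and unadjusted p was under 0.05 for 1480 of them, 1 of them a member.

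That member was Cdc6, in the direction opposite to the one without LPS. Its log2 values were 7.21 and 6.98 in CCSP-p52 LPS pools, against 7.45 and 7.38 in WT LPS pools, so that both CCSP-p52 pools lay below both WT pools. The logFC was -0.32 (95% interval -0.62 to -0.02, unadjusted p = 0.0385, adjusted p = 0.70 from limma), which is short of the cut-off in size. Without CCSP-p52 LPS pool 1 it was -0.44 and called lower, and without CCSP-p52 LPS pool 2 it was -0.21. For the members that differed without LPS, the values after LPS overlapped. Dtl had 7.91 and 7.43 in CCSP-p52 LPS pools, against 7.78 and 7.51 in WT LPS pools, a logFC of 0.03 (95% interval -0.39 to 0.44). Mcm6 had 8.94 and 8.67 in CCSP-p52 LPS pools, against 8.82 and 8.71 in WT LPS pools, a logFC of 0.04 (95% interval -0.29 to 0.37). Mcm5 had 9.92 and 9.50 in CCSP-p52 LPS pools, against 9.87 and 9.52 in WT LPS pools, a logFC of 0.02 (95% interval -0.44 to 0.47). Mcm2 had 9.31 and 8.98 in CCSP-p52 LPS pools, against 9.47 and 9.19 in WT LPS pools, a logFC of -0.19 (95% interval -0.55 to 0.17). For Mcm5 the upper end of the interval nearly reached its logFC without LPS. Of all probe sets called in this comparison 49.9% were higher, and 35.3% and 62.9% were after centring or quantile normalizing the arrays again.

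**Figure D2:**
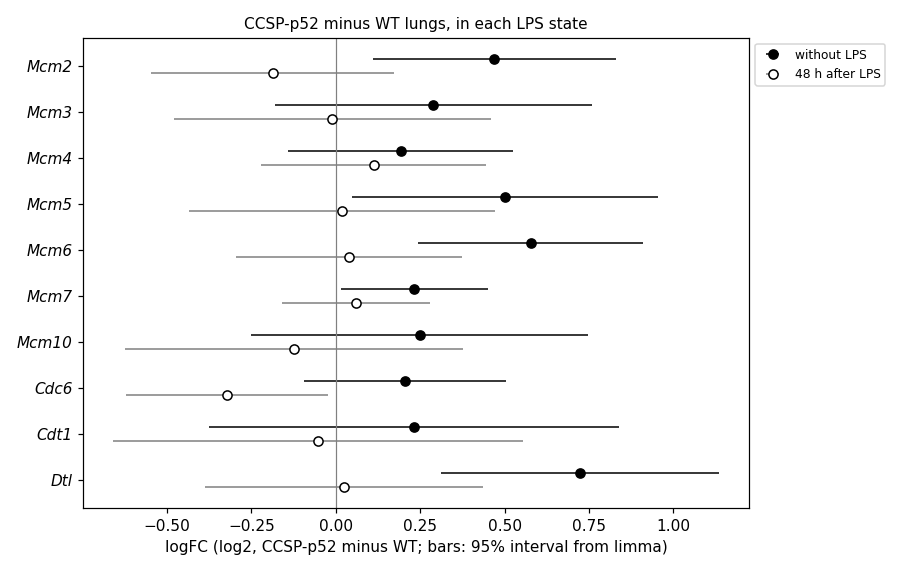
Difference on the log2 scale between CCSP-p52 and WT lungs for each member, without LPS (filled) and 48 hours after LPS (open), with bars for the 95% interval from limma (n = 2 pools per group). All 10 filled points lie right of 0, from 0.19 for Mcm4 to 0.72 for Dtl, and the open points lie between -0.32 and 0.11.

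The difference between these effects was itself tested, as the p52 by LPS interaction of the 4-group model. It was negative for all 10 members, with a median of -0.43, and 4 members were called lower at the same cut-off, against 2.30% of all probe sets. These members were Dtl at -0.70 (standard error 0.25, unadjusted p = 0.0254), Mcm2 at -0.66 (standard error 0.21, unadjusted p = 0.0187), Mcm6 at -0.54 (standard error 0.20, unadjusted p = 0.0311) and Cdc6 at -0.53 (standard error 0.18, unadjusted p = 0.0219). The other 6 ranged down to -0.48 for Mcm5 and were smallest in size for Mcm4, at -0.08. Of all probe sets called here 36.8% were positive, a share of 19.0% after centring the arrays on their medians, with 4 members called lower, and of 51.2% after quantile normalizing them again, with 3. The adjusted p was 0.91 for the 4 called members, and 0% of all probe sets passed adjustment in limma, with 1069 at an unadjusted p under 0.05. The count of members was 0 without WT dox pool 2 or WT LPS pool 1, and 1 without CCSP-p52 dox pool 2. It was 2 when CCSP-p52 LPS pool 2 was left out and 7 when CCSP-p52 LPS pool 1 was. Without both second LPS pools, the arrays with divergent cell markers, it was 2. Nfkb2 itself had an interaction of -0.51 (standard error 0.33, unadjusted p = 0.17), and equal induction of p52 in both LPS states was not established.

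Over both LPS states together an additive model was fitted, as the study's methods describe, with p52 and LPS as factors. The study lists NFKB2 at the logFC that Nfkb2 had here without LPS, 0.72, and not at its additive value, 0.47. Which fit gave the study's list was not settled here. In the additive model no member reached the cut-off. The share of all probe sets called higher was 0.245%, and 481 had an unadjusted p under 0.05. The members' logFC had a median of 0.14 and was positive for 9 of 10, all but Cdc6 at -0.06 (95% interval -0.35 to 0.23). Dtl had the largest value, 0.37 (standard error 0.17, unadjusted p = 0.0555), and Mcm6 followed at 0.31 (standard error 0.13, unadjusted p = 0.0486), which was the single member with a p under 0.05. A single probe set, 0.00471% of those tested, passed adjustment, and the adjusted p of every member was 1.00 in limma. With CCSP-p52 LPS pool 2 left out the count of members was 2, without WT LPS pool 1 it was 1, and without both second LPS pools it was 2, namely Dtl at 0.53 and Mcm6 at 0.43.

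LPS raised the members over the pooled genotypes. All 10 passed adjustment in the additive model (adjusted p under 0.05 from limma), against 13.5% of all probe sets called higher. Their median logFC was 0.66 and that of all probe sets 0.01. Dtl had the largest increase, 0.97 (standard error 0.17, 1.95-fold, adjusted p = 0.0035), followed by Cdt1 at 0.91 (standard error 0.17, 1.87-fold, adjusted p = 0.0054) and Mcm5 at 0.88 (standard error 0.15, 1.84-fold, adjusted p = 0.0034). Mcm4 had the smallest, 0.33 (standard error 0.09, 1.25-fold, adjusted p = 0.0292). Mcm5, Mcm6, Mcm7, Mcm10, Cdt1 and Dtl passed whichever single array was left out. Mcm2, Mcm4 and Cdc6 each lost the call without any 1 of 6 arrays, and Mcm3 without WT dox pool 2, so that the count ranged between 6 and 10.

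In WT lungs the LPS pools of all 10 members lay above the dox pools, as 34.9% of all probe sets did. Dtl had log2 values of 7.78 and 7.51 in WT LPS pools, against 6.32 and 6.35 in WT dox pools, for a logFC of 1.31 (standard error 0.17, 2.49-fold, adjusted p = 0.0062 from limma). Mcm5 rose by 1.12 (standard error 0.19, 2.18-fold), Cdt1 by 1.05 (standard error 0.26, 2.07-fold) and Mcm6 by 1.04 (standard error 0.14, 2.06-fold). Mcm10 had values of 7.95 and 7.56 in WT LPS pools, against 6.82 and 6.70 in WT dox pools, and Cdc6 had 7.45 and 7.38 in WT LPS pools, against 6.75 and 6.68 in WT dox pools. In all, 9 of the 10 members passed adjustment, against 7.98% of all probe sets called higher. Higher calls were 36.8% of all calls in WT lungs and 51.3% after centring the arrays. The exception was Mcm4, with 8.87 and 8.65 in WT LPS pools, against 8.44 and 8.34 in WT dox pools, a logFC of 0.37 (adjusted p = 0.105). With the pool number as a block Mcm4 passed too and the count was 10. The count was 0 without WT dox pool 2, 1 without WT dox pool 1 and 2 without WT LPS pool 1, and without WT LPS pool 2, the array with the squamous and muscle genes, it was 8.

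In CCSP-p52 lungs the same comparison started from higher dox values and gave smaller differences. The LPS pools lay above the dox pools in 8 of 10 members, all but Mcm2 and Cdc6, where 25.1% of all probe sets had that order. The members' median logFC was 0.45, against 0.94 in WT lungs. Mcm7 alone passed adjustment, with 9.60 and 9.45 in CCSP-p52 LPS pools, against 9.11 and 9.13 in CCSP-p52 dox pools, which is a logFC of 0.41 (standard error 0.09, 1.33-fold, adjusted p = 0.0426 from limma). The share of all probe sets called higher was 4.31%. Cdt1 had the largest difference but a wide spread, with 9.19 and 8.56 in CCSP-p52 LPS pools, against 8.17 and 8.05 in CCSP-p52 dox pools, which is a logFC of 0.76 (standard error 0.26, adjusted p = 0.104). Mcm2 had a logFC of 0.22 (95% interval -0.14 to 0.58) and Cdc6 one of 0.18 (95% interval -0.12 to 0.48). With the pool number as a block 4 members passed, Mcm5, Mcm6, Mcm7 and Cdt1. Without CCSP-p52 LPS pool 2 the count was 7, without both second LPS pools it was 9, and without any other single array it was 0. The difference between the LPS effects of the genotypes is the same interaction as above.

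**Figure D3:**
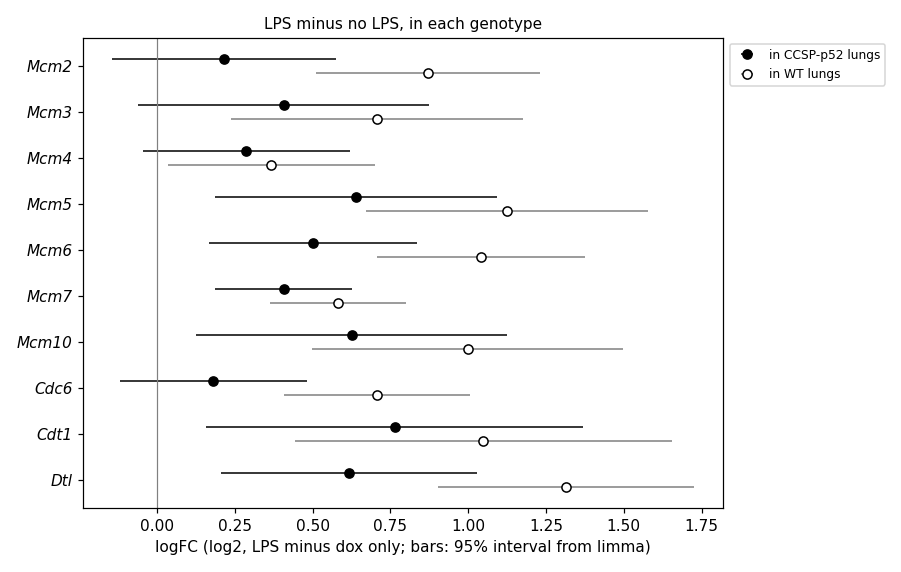
Difference on the log2 scale between lungs with LPS and lungs on dox alone for each member, in CCSP-p52 (filled) and WT mice (open), with bars for the 95% interval from limma (n = 2 pools per group). All points lie right of 0, and each filled point lies left of the open point of its gene.

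Pool 1 read higher than pool 2 in both LPS groups for all 10 members. The distance was largest for Cdt1, at 0.62 in CCSP-p52 LPS lungs and 0.49 in WT LPS lungs. It was smallest for Mcm7, at 0.15 in CCSP-p52 LPS lungs and 0.01 in WT LPS lungs. On dox alone pool 1 was above pool 2 in 4 of 10 members in CCSP-p52 lungs and in 9 of 10 in WT lungs. Inflammatory cell markers moved with the LPS effect. All 6 neutrophil markers and 6 of 7 monocyte and macrophage markers were called higher by LPS in WT lungs. The mean log2 value of the neutrophil markers was 10.90 to 11.41 in CCSP-p52 LPS pools and 11.04 to 11.57 in WT LPS pools, against 7.57 to 7.63 in CCSP-p52 dox pools and 7.40 to 8.03 in WT dox pools. The monocyte and macrophage mean was 9.53 to 10.41 in CCSP-p52 LPS pools and 10.06 to 10.33 in WT LPS pools, against 7.91 to 8.35 in CCSP-p52 dox pools and 7.71 to 8.29 in WT dox pools. Most markers of resident cells moved the other way. In the additive model LPS lowered 3 of 4 alveolar type I markers (median logFC -0.62) and 3 of 4 endothelial markers (median -0.53). It also lowered 2 of 4 club cell markers (median -0.65) and 2 of 4 alveolar type II markers (median -0.42). In that model 4289 of all 21218 probe sets were called lower. The alveolar type I, club cell and alveolar type II lists each held 1 marker with a positive logFC. The club cell mean was 11.23 and 12.17 in CCSP-p52 LPS pools and 10.55 and 12.02 in WT LPS pools, against 12.18 and 11.95 in CCSP-p52 dox pools and 12.39 and 12.64 in WT dox pools. Among the LPS pools of each genotype, the pool with the lower monocyte and macrophage mean was also the one with the lower mean of the members. That pool also had the lower neutrophil, T cell and B cell means. On dox alone the monocyte and macrophage order matched that of the members in WT lungs but not in CCSP-p52 lungs. The CCSP-p52 dox pools had monocyte and macrophage means of 8.35 and 7.91 and member means of 8.13 and 8.16. The part of any of these cells in the LPS effect on the members was not tested.

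**Figure D4:**
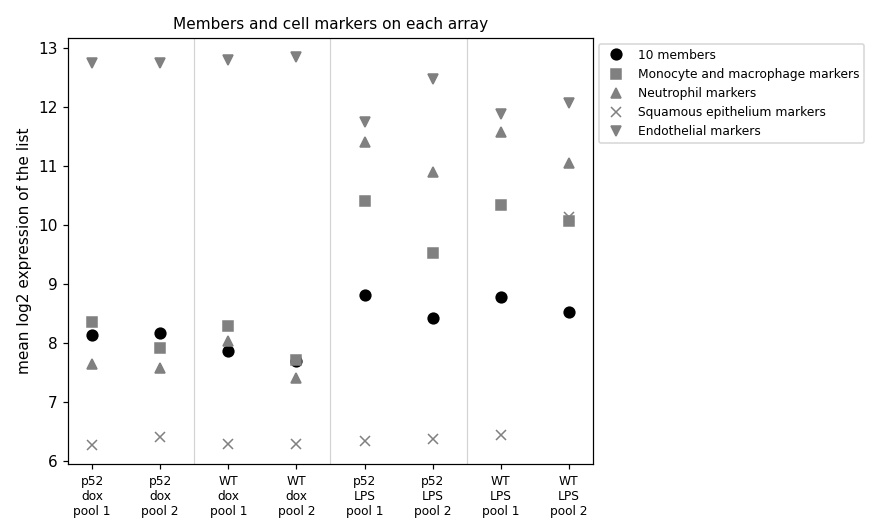
Mean log2 expression of the 10 members and of 4 marker lists on each array, by group and pool. The members and the myeloid lists are higher in all LPS pools than in all dox pools, and the squamous list stands at 10.14 in WT LPS pool 2 and between 6.27 and 6.43 elsewhere.

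The 10 members had much the same profile over the 8 arrays. The Pearson correlation of a member with the mean of the other 9 was lowest for Cdc6, at 0.88, and highest for Mcm5, at 0.99. Among 9323 other genes above the median level, the 5 most like the members' mean profile were Cks2, a partner of cyclin-dependent kinases (r = 0.995), Racgap1, needed for cytokinesis (r = 0.994), Ccna2, which encodes cyclin A2 (r = 0.994), Aurkb, a mitotic kinase (r = 0.993), and the histone gene H2bc14 (r = 0.993). These 8 points share the 4 group differences and the pools, so the correlations describe the profile only. Ccna2 had values of 8.22 and 8.33 in CCSP-p52 dox pools, against 7.57 and 7.26 in WT dox pools, and of 9.59 and 8.90 in CCSP-p52 LPS pools, against 9.51 and 9.27 in WT LPS pools.

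Other genes of DNA replication were set beside the members in 5 lists with 66 measured genes. In lungs without LPS 8 of the 66 were called higher in CCSP-p52 mice, against 0.556% of all probe sets. Of those 8, 7 were in the list of 12 proliferation reference genes, whose median logFC was 0.55. Top2a, a topoisomerase of dividing cells, had 7.79 and 7.72 in CCSP-p52 dox pools, against 6.97 and 6.79 in WT dox pools, a logFC of 0.87 (standard error 0.22, unadjusted p = 0.0057 from limma). Mki67, the proliferation antigen Ki-67, had 8.85 and 8.90 in CCSP-p52 dox pools, against 8.12 and 7.77 in WT dox pools, a logFC of 0.93 (standard error 0.26), and Ccna2 a logFC of 0.86 (standard error 0.23). The study had itself picked out genes of this kind on these arrays, so the list is no independent evidence of a direction. Apart from the arrays, the study reports higher Ccna2 and Top2a by quantitative PCR in whole lung RNA of CCSP-p52 mice on dox. It also reports greater proliferation, by BrdU incorporation, in rat lung epithelial cells made to express p52.

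Partners of the members in licensing and firing were read in the same comparison, in which 0.556% of all probe sets were called higher. At so low a share, the absence of calls in lists this short says little about their genes. None of the 12 genes of the origin recognition complex and licensing partners was called, and their median logFC was 0.03. Gmnn, which encodes geminin, the inhibitor of Cdt1, had 6.31 and 6.39 in CCSP-p52 dox pools, against 6.04 and 6.24 in WT dox pools, a logFC of 0.21 (standard error 0.11), and Mcm8, a relative of the MCM subunits that acts in recombination, also had 0.21 (standard error 0.10). Mcm9 had -0.11 (standard error 0.09). None of 11 genes of helicase activation and origin firing was called (median 0.14). Dbf4, the regulatory subunit of the kinase that phosphorylates the loaded ring, had a logFC of 0.30 (standard error 0.21), Gins1, a subunit of the GINS complex of the active helicase, 0.22 (standard error 0.15), and Wdhd1, which links the helicase to DNA polymerase alpha, 0.19 (standard error 0.15).

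At the replication fork 1 of 24 genes was called, against 0.556% of all probe sets called higher. This gene was Pole, the catalytic subunit of the leading-strand polymerase. It had 7.59 and 7.62 in CCSP-p52 dox pools, against 7.12 and 7.01 in WT dox pools, a logFC of 0.54 (standard error 0.17, unadjusted p = 0.0171 from limma). Clspn, the checkpoint adaptor claspin, had 0.33 (standard error 0.12) and Chaf1a, a histone chaperone subunit, 0.21 (standard error 0.10), both under the cut-off in size. None of 7 ubiquitin ligase parts that act on Cdt1 was called (median -0.05), with Skp2 at 0.15 (standard error 0.13), Skp1 at -0.18 (standard error 0.17) and Rbx1 at -0.10 (standard error 0.13). At the share of 0.556% called higher, no call among so few ligase parts is not a result about them. The difference between Dtl and these parts was not tested.

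After LPS the same lists held many called genes. In the additive model 31 of the 66 genes were called higher and 2 lower (adjusted p under 0.05 from limma). Of all 21218 probe sets 2857 were called higher and 4289 lower. All 12 proliferation reference genes were higher (median 1.15), as were 13 of 24 fork genes (median 0.36) and 5 of 11 genes of helicase activation (median 0.37). Rrm2 and Rrm1, subunits of ribonucleotide reductase, had a logFC of 1.39 (standard error 0.17) and 0.54 (standard error 0.07), and Cdk1, the mitotic kinase, 1.48 (standard error 0.20). Dbf4 rose by 0.85 (standard error 0.15) and Gins1 by 0.74 (standard error 0.10), with Wdhd1 at 0.56 (standard error 0.12). Chaf1b, a histone chaperone subunit, rose by 0.72 (standard error 0.13), Clspn by 0.63 (standard error 0.10) and the DNA ligase gene Lig1 by 0.53 (standard error 0.09).

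Of the 12 genes of the origin recognition complex and licensing partners 1 was called higher by LPS, Gmnn, with 6.64 and 6.62 in CCSP-p52 LPS pools and 6.37 and 6.54 in WT LPS pools, against 6.31 and 6.39 in CCSP-p52 dox pools and 6.04 and 6.24 in WT dox pools. Its logFC was 0.30 (standard error 0.07, adjusted p = 0.0164 from limma). Orc1, the origin recognition subunit whose level varies over the cell cycle, had 0.44 (standard error 0.18, adjusted p = 0.0894), and Orc2 had -0.17 (standard error 0.07, adjusted p = 0.118). Of the 7 ligase parts 2 were called lower after LPS, where 4289 of all 21218 probe sets were. Cul4a, the scaffold of the ligase in which Dtl works, had a logFC of -0.31 (standard error 0.08, adjusted p = 0.0151). Ddb1, the adaptor that binds Dtl, had -0.19 (standard error 0.06, adjusted p = 0.0469). Dtl itself was higher, and its difference from these parts was not tested. Rbx1 had 0.21 (standard error 0.10, adjusted p = 0.129).

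**Figure D5:**
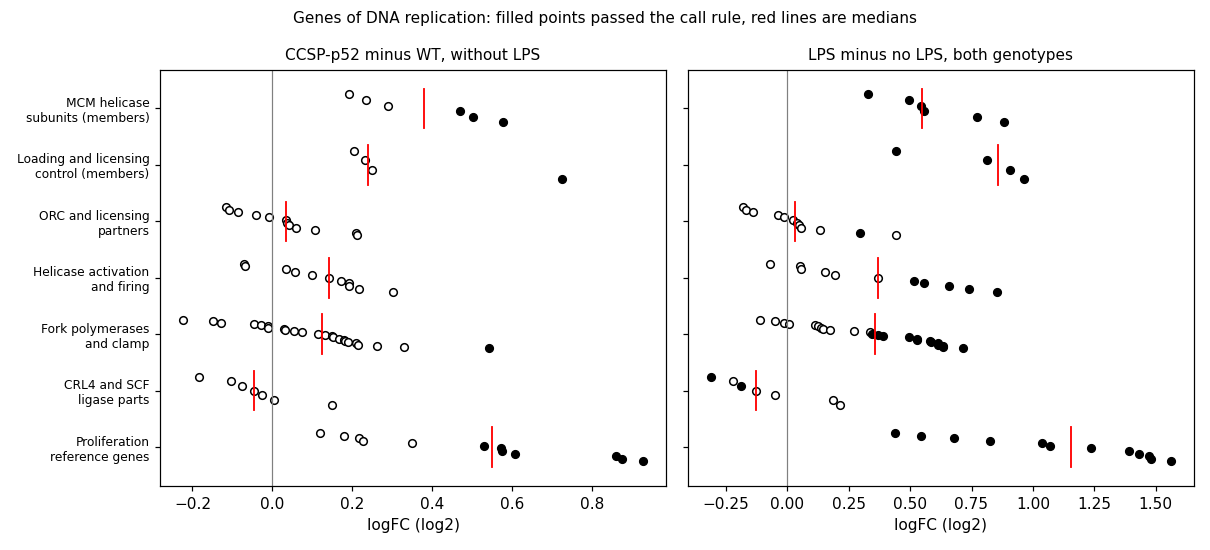
Log2 differences of single genes (points) by list, for CCSP-p52 against WT lungs without LPS (left) and for lungs with LPS against lungs without it in the additive model (right), with red lines at the list medians. Points that passed the call rule are filled, which on the left are 4 of the 10 members, 1 of 24 fork genes and 7 of 12 proliferation reference genes.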

How the data were processed

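Whole lung RNA was measured on 8 Affymetrix Mouse Gene ST arrays, named 1.0 by the labels. The deposited log2 values were made by the authors with oligo (Robust Multichip Average), in steps of background correction, equalizing of arrays and summary per probe set. The submitters' processing notes name limma 3.20.8. The genome build of the probe sets is not stated in any source used here. Scanner files were not used. Of 35556 probe sets, 21218 have 1 gene symbol in the platform's table, whose array version was not matched to the labels, and were tested, 1881 have several and 12457 none.

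limma 3.58.1 in R 4.3.3 gave an additive model (p52, LPS) and a 4-group model, with Benjamini-Hochberg adjustment over all 21218. p52 effects and the interaction were called at 0.41 or more in logFC size, from the study's cut-off for higher genes, with an unadjusted p no higher than 0.05 added here, and LPS effects at an adjusted p under 0.05. The number of arrays limits the precision, with a median standard error of 0.095 in the additive model and 0.129 in the 4-group comparisons of groups. No source says how mice were assigned to pools, so p-values measure the spread between these pools. In the 4-group model all groups shared 1 moderated spread per gene. The standard error of a gene was therefore the same without and with LPS, as for Dtl at 0.17 in both.

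Genes named were the members, Nfkb2, up to 3 genes per list with the smallest p for the p52 effect without LPS or the additive LPS effect, and the 5 genes most like the members. The members and lists were chosen with earlier results of these data known. Deviations of same-numbered pools correlated at 0.14 to 0.35 over all 6 pairs of groups. From the values alone, numbers were therefore taken to pair pools, but only in the alternative with a block. The main fits left the pools unpaired. No source says what they share. Alternatives were other sets of probe sets, moderation with a trend, weights per array, the pool number as a block, centring or quantile normalizing the arrays again, fits on each LPS state alone, an average over the 4-group model, stricter thresholds and each array left out. Leaving out both second LPS pools was chosen after seeing the data. On simulated data only the additive p52 effect was checked, with equal effects in both LPS states and independent errors between arrays. The other comparisons were not checked in this way. Promoters came from RefSeq tables of build GRCm38.p6, in which Mcm4 was not matched.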

Additional observations from a re-analysis of the deposited data

Results flagged for a closer look

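The p52 effect differed between lungs with and without LPS for 4 members, by the interaction test of the 4-group model in limma (logFC of 0.41 or more in size, unadjusted p no higher than 0.05). Nfkb2, the induced gene, did not separate the genotypes on the LPS arrays. The difference, as the effect with LPS minus that without, was -0.70 for Dtl, -0.66 for Mcm2, -0.54 for Mcm6 and -0.53 for Cdc6. In Dtl, Mcm2 and Mcm6 the CCSP-p52 pools lay above the WT pools on dox alone and overlapped them after LPS, and in Cdc6 they lay above on dox alone and below after LPS. None passed adjustment over all probe sets (adjusted p = 0.91), and leaving out any 1 of several arrays ended each call. In the members' own values, groups of 2 pools were too small to tell which pool of a group lay apart.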

How the results depend on the processing

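With the pool number as a replicate block, 4 members were called for LPS in CCSP-p52 lungs in place of 1, Mcm4 was added for LPS in WT lungs (10 in place of 9) and Mcm5 in the interaction (logFC -0.48, 5 in place of 4), and the block changed no other call of a member. Array weights called 3 members in the additive p52 effect and 0 for LPS in CCSP-p52 lungs, and testing all probe sets also called 0 there. Stricter thresholds (p or adjusted p of 0.01) left 2 members for p52 without LPS, 0 in the interaction, 6 and 3 for LPS in the additive model and in WT lungs, and 0 in CCSP-p52 lungs. Among probe sets above the median level, where 7 members remain, without Mcm10, Cdc6 and Dtl, 2 were called in the interaction. Without both second LPS pools the counts were 2 for the additive p52 effect, 2 in the interaction and 9 for LPS in CCSP-p52 lungs. When single arrays were left out, the counts ranged from 2 to 4 for p52 without LPS, 0 to 2 in the additive p52 effect, 0 to 7 in the interaction, 6 to 10 for LPS in the additive model, 0 to 10 in WT lungs and 0 to 7 in CCSP-p52 lungs. For p52 with LPS no member was called higher in any of these fits, and Cdc6 was called lower (-0.44) without CCSP-p52 LPS pool 1. Fewer arrays leave fewer degrees of freedom, and otherwise the cause was not tested.

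The following values changed sign under an alternative. The additive p52 effect of Cdc6 was 0.023 with array weights and 0.055 without both second LPS pools. The p52 effect with LPS was 0.098 for Mcm3 and 0.015 for Cdt1 without both second LPS pools, -0.012 for Mcm5, -0.0039 for Dtl and -0.026 for the members' median after centring, and -0.023 for Mcm5, -0.0014 for Mcm6 and -0.038 for the median after renewed quantile normalization. With single arrays left out, the additive p52 effect ranged from -0.013 to 0.21 for Mcm10, -0.16 to 0.039 for Cdc6 and -0.020 to 0.24 for Cdt1. The p52 effect with LPS ranged from -0.28 to 0.26 for Mcm3, -0.050 to 0.27 for Mcm4, -0.20 to 0.23 for Mcm5, -0.098 to 0.18 for Mcm6, -0.014 to 0.13 for Mcm7, -0.40 to 0.16 for Mcm10, -0.36 to 0.26 for Cdt1, -0.22 to 0.27 for Dtl and -0.25 to 0.20 for the median. The interaction ranged from -0.24 to 0.081 for Mcm4 and -0.60 to 0.027 for Cdt1.

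Counts over all probe sets moved by more. Over all alternatives, probe sets called higher ranged from 35 to 225 for p52 without LPS (118 as reported), 83 to 1802 with LPS (231), 17 to 217 in the additive model (52), 1566 to 4101 for LPS in the additive model (2857), 146 to 3048 in WT lungs (1694) and 33 to 3105 in CCSP-p52 lungs (915), and those called lower in the interaction from 43 to 1459 (487).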
